A study of Macaca mulatta with 12 samples.

Results

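TRBV20-1 is a V gene of the T cell receptor beta chain (TRB), and its clonotypes were followed in blood mononuclear cells of rhesus macaques that had received infusions of apoptotic donor leukocytes (ADLs), white cells of a donor fixed so that they die once infused. Sequences with the same CDR3 nucleotides, the stretch where V, D and J segments meet, were counted as 1 clonotype. A clonotype belonged to TRBV20-1 when that gene was its first V gene hit, which held for 8393 of 218326 clonotypes in the 12 libraries, summed over libraries. Of these, 8388 came from 8 post-infusion libraries and 5 from 4 baseline libraries. The series asked how the T cell repertoire moved after ADL infusion.

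The post-infusion libraries carried the animal names Amazo, Nebula and Rocket. They were taken at day -5 (n = 3) and day -4 (n = 3) relative to an intended transplant, at day 0 (Nebula, n = 1) and at day +3 (Amazo, n = 1), and the series text gives ADL infusions on days -7 and +1. Per the study, these were male, nondiabetic monkeys that received no transplant, were MHC class I-disparate and 1 Mamu-DR matched to the ADL donor, and were under transient immunosuppression (anti-CD40 antibody 2C10R4, rapamycin, tocilizumab and etanercept), so no post-infusion group was free of these drugs. The baseline libraries carried other animal names, and the labels give them no treatment. There was no group given the drugs without ADLs.

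A beta chain is built by joining 1 V, 1 D and 1 J segment, with bases trimmed from the segment ends and random bases added between them. The V gene encodes the first residues of the CDR3, and the added bases and the D segment encode its centre, which touches the peptide on the MHC molecule. In humans, TRBV20-1 is the older Vβ2, its CDR3 characteristically starts with CSAR and not with the common CASS, and it is one of the beta chains that MAIT cells (mucosal-associated invariant T cells) pair with their semi-invariant alpha chain. The libraries held beta chains only, so alpha chain partners were not measured.

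Depth and identity of the libraries bear on all values below. Baseline libraries held 63 to 74 counts and post-infusion libraries 42695 to 556954, so each count weighed 1.35% to 1.59% at baseline and at most 0.00234% after infusion. By overlap of their clonotypes, the post-infusion libraries fell into 3 repertoires and not into the 3 names. The Nebula libraries formed 1 set, the library labelled Amazo day -4 stood alone, and those labelled Amazo day -5 and Amazo day +3 fell in 1 set with both Rocket libraries. The 3 day -4 libraries each held a different repertoire, so TRBV20-1 was compared with other V genes there (n = 3), and values of all 8 libraries are given as descriptions. As the labels name no separate cultures or preparations, p-values measure only the spread between these libraries. Those of Fisher's exact test, which sets 1 library against 1, cover counting error only.

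The untrimmed V end of TRBV20-1 carried the start of its CDR3 in the gene itself. It is shown first, as read from these files, because all lengths and starts below refer to it, with no capitals since no part of it was added at the junction. It was the leading sequence in 95.5% of the 1690 productive post-infusion TRBV20-1 clonotypes whose V part ended exactly at the gene end. Clonotypes with palindromic bases beyond that end, described below, are not in this number.
TRBV20-1 V end: tgcagtgctagag
Its 13 bases encode cysteine, serine, alanine and arginine, followed by 1 base of the next codon. The leading clones of the 3 repertoires follow, with capitals for the bases between the end of the V alignment and the start of the J alignment, which hold the D segment and the added bases.
clone A: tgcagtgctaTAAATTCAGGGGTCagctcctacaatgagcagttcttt
clone B: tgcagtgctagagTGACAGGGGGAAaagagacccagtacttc
clone C: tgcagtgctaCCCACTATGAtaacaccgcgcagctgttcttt
clone D: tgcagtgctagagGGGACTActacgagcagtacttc
clone E: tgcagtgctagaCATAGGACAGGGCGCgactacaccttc
clone G: tgcagtgcCCGATccgcgcagctgttcttt
clone H: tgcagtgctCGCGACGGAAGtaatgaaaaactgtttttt
Clones A, B and C led the set of Rocket and Amazo day -5 and day +3, clones D and E led Nebula, and clones G and H led Amazo day -4. Clone B kept all 13 V bases, and its CDR3 read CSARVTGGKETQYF with TRBD1 and TRBJ2-5. Clone D also kept 13 V bases and read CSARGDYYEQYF with TRBD2 and TRBJ2-7. Clone E lost 1 V base and read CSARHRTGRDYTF with TRBD1 and TRBJ1-2. Clone C lost 3 V bases and read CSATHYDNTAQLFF with TRBJ2-2 and no D hit. Clone G lost 5 V bases and read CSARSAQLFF, so its arginine codon lay in the bases between V and J. The arginine of clone H, which lost 4 V bases and read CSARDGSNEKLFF with TRBJ1-4, lay there as well. Clone A lost 3 V bases, joined TRBD1 and TRBJ2-1, and had a CDR3 of 48 bases that starts CSAI.

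TRBV20-1 was among the more used V genes in each post-infusion library. At day -5 its share of counts was 3.03% in Amazo, 3.86% in Nebula and 2.26% in Rocket, and at day -4 it was 4.40%, 4.01% and 2.82% in the same order. It was 3.88% in Nebula day 0 and 3.28% in Amazo day +3. All 3 names were higher at day -4, by 1.37, 0.147 and 0.558 percentage points, although the ranges of the days overlapped. Day -5 libraries averaged 3.05% ± 0.802 and day -4 libraries 3.74% ± 0.825 (SD, n = 3), a difference of 0.693 percentage points (exact two-sided sign-flip permutation p = 0.25, the smallest that 3 pairs allow). The Amazo pair compares different repertoires, and without it the mean difference was 0.352 percentage points. Amazo day -5 and Rocket day -5 hold the same repertoire, so the SD of the 3 day -5 libraries is not that of 3 repertoires.

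Among all V genes, TRBV20-1 ranked 5th to 13th by counts and 4th to 10th by clonotypes in the 8 libraries, which listed 58 to 61 V genes each. Its highest share was 1.95 times its lowest, the 10th smallest such ratio of 53 V genes. All of its clonotypes had TRBV20-1 as the only V gene hit, against 85.8% to 91.4% of the clonotypes of other V genes with a single gene. In the fit of counts per V gene across the 3 pairs (edgeR quasi-likelihood test, animal as block, Benjamini-Hochberg adjustment), TRBV20-1 had a log2 fold change of 0.22 ± 0.20 (SE) from day -5 to day -4, with an adjusted p of 0.673. The share of V genes called was 0% (0 of 57), with 0 at an unadjusted p under 0.05 and, by DESeq2, 0 called and 5 at an unadjusted p under 0.05. Amazo day -5 shares its repertoire with Rocket day -5, and the Amazo block joins different repertoires. Without it 4 of 56 V genes were called, and TRBV20-1 was not among them (log2 fold change 0.11).

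Counted by clonotypes, each weighted equally, the share of TRBV20-1 was closer between libraries. It was 3.64%, 3.55% and 3.35% at day -5 (mean 3.51% ± 0.145, SD, n = 3) and 4.73%, 4.00% and 3.82% at day -4 (mean 4.18% ± 0.483, SD, n = 3), for Amazo, Nebula and Rocket in that order. All day -4 values lay above all day -5 values. However, Amazo day -5 and Rocket day -5 hold the same repertoire, and the highest value, 4.73%, is of Amazo day -4, which holds a different one. The days therefore do not compare the same repertoires. At a common depth of 42695 counts the expected shares were 3.87%, 3.71% and 3.44% at day -5 and 4.88%, 4.00% and 4.04% at day -4, again without overlap. Nebula day 0 had 3.73% and Amazo day +3 3.97% at full depth, which lay near the day -5 value of Nebula and above that of Amazo. At the common depth they had 3.89% and 4.32%. Amazo day +3 thus lay above the day -4 values of Nebula and Rocket, so a high share was not confined to day -4.

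At baseline, 2, 4, 2 and 1 counts were TRBV20-1 in libraries 1 to 4, with 1, 2, 1 and 1 clonotypes. The shares were 2.74%, 6.35%, 2.70% and 1.43% of counts (mean 3.31% ± 2.12, SD, n = 4), and the 95% Wilson interval of the lowest ran from 0.253% to 7.66%. Of the 4 intervals, which cover counting error only, 3 held every post-infusion share, and that of library 2 began at 2.50%, above the 2.26% of Rocket day -5. Neither day -5 (exact permutation p = 0.914) nor day -4 (exact permutation p = 0.743) differed detectably from baseline, and 4 against 3 libraries cannot go below 0.0571. At this depth 3 counts are 4.05% to 4.76% of a library, so changes of the size seen between day -5 and day -4 could not have been detected. Baseline TRBV20-1 clonotypes also had lower V alignment scores, with medians of 190 to 519 where post-infusion libraries had 1233 to 1303, so the kind of library and the group cannot be told apart. Of the 5 baseline clonotypes, 3 started CSAR.

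**Figure D1:**
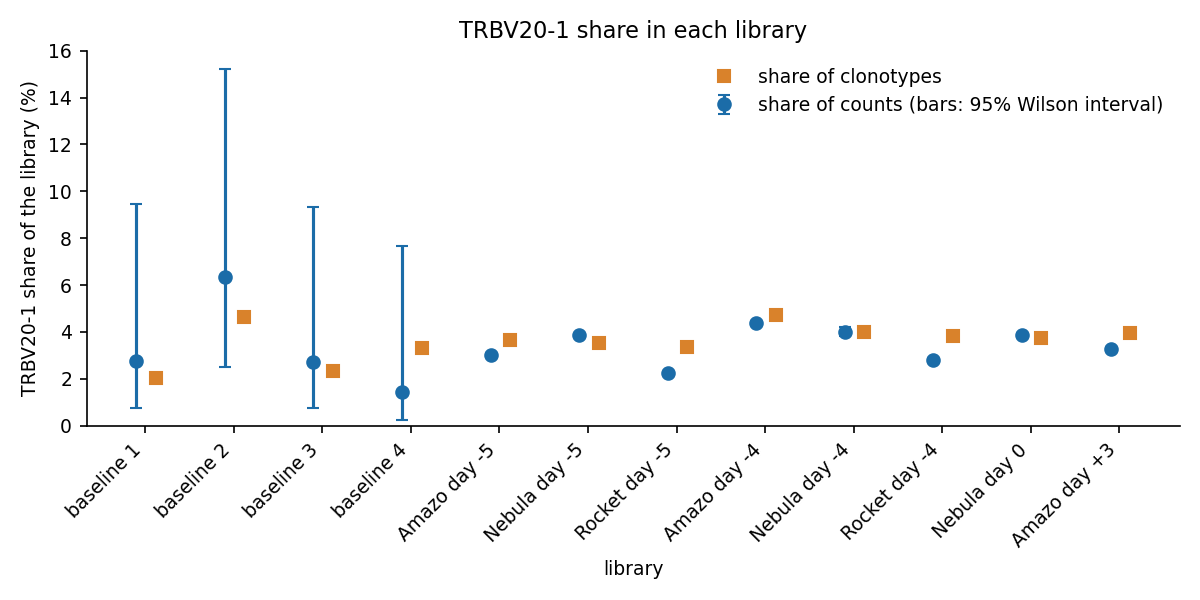
TRBV20-1 share of counts (circles, with 95% Wilson intervals) and of clonotypes (squares) in percent of each of the 12 libraries. Baseline intervals span 0.253% to 15.2%, while the 8 post-infusion shares of counts sit between 2.26% and 4.40%.

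The start of the CDR3 set TRBV20-1 apart from nearly all other V genes. CSA opened 87.3% to 93.0% of its productive clonotypes (those in frame with no stop codon) and 0.219% to 0.379% of those of other V genes, in 8 of 8 libraries. CASS opened 0% of TRBV20-1 clonotypes and 72.8% to 77.2% of the others. CSAR was the leading start of 4 residues, with 43.2%, 42.4% and 42.4% of productive clonotypes at day -5 and 41.0%, 41.5% and 42.3% at day -4 (Amazo, Nebula, Rocket), 41.8% in Nebula day 0 and 42.4% in Amazo day +3. The 3 repertoires thus had nearly the same CSAR share. CSAS followed with a mean of 11.6% (range 9.97% to 12.6%), and then CSAT (5.09%), CSAP (5.01%) and CSAG (4.62%).

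The arginine of CSAR could come from the V end itself or from the bases between V and J. The V alignment reached the last base of the arginine codon, base 12, in 32.0% to 34.8% of productive clonotypes. Of those, 95.3% to 98.4% started CSAR, which such an alignment largely fixes, as the V end encodes CSAR up to that base. Of all CSAR clonotypes, 73.5% to 78.4% had the arginine codon within the V alignment, like clones B, D and E. The rest had it completed or made between V and J, like clones G and H. By counts, the CSAR share was more uneven, from 30.5% in Rocket day -5 to 48.6% in Nebula day -5. The 4 libraries led by clone A, which starts CSAI, had the 4 lowest values, 30.5% to 34.2%, against 45.9% to 48.6% in the other 4.

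Of the 5 V genes set beside it, those whose human CDR3 usually starts otherwise than with CASS, TRBV29-1 started mainly with CSV (76.8% to 80.8%), TRBV24-1 with CAT (94.4% to 96.8%) and TRBV30 with CAW (84.4% to 88.7%). CASS took at most 1.06% of productive clonotypes in these 3. TRBV15 and TRBV10-3 started mainly with CAS, and CASS took 73.9% to 90.1% and 60.0% to 81.8% of their clonotypes.

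TRBV20-1 CDR3s were short, and the difference lay in the V part. Mean length of productive clonotypes at day -4 was 41.4, 41.5 and 41.4 nucleotides in Amazo, Nebula and Rocket, and 43.4, 43.2 and 43.5 for other V genes. The difference was -1.93 ± 0.207 nucleotides (SD of the differences, n = 3, negative in 3 of 3, exact sign-flip permutation p = 0.25, the smallest possible). Over all 8 libraries the difference ran from -2.15 to -1.70 and was negative in 8. The spread of lengths within a library was alike, with an SD of 4.98 to 5.55 nucleotides for TRBV20-1 and 5.15 to 5.41 for other V genes. Among V genes with at least 100 productive clonotypes, TRBV20-1 ranked 2nd to 4th from the shortest in each library, and TRBV29-1 was the shortest in each (38.7 to 39.8 nucleotides).

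Split by origin, TRBV20-1 CDR3s at day -4 held 10.3 ± 0.0449 bases aligned to the V gene against 12.96 ± 0.122 in other V genes (SD, n = 3), a difference of -2.66. The bases between V and J numbered 13.5 ± 0.0603 against 13.1 ± 0.212, a difference of 0.452 ± 0.166 (positive in 3 of 3). The J part held 17.6 ± 0.0808 against 17.3 ± 0.145 bases, a difference of 0.271 ± 0.111. Each of these gave an exact sign-flip permutation p = 0.25, and none could be lower. The V part was shorter in 8 of 8 libraries and the part between V and J was longer in 8 of 8, by 0.261 to 0.726 bases. The J part was longer in 7 of 8, with a difference of -0.168 bases in Nebula day -5. Weighted by counts, the mean length was instead slightly longer than that of other V genes in the 4 libraries led by clone A, for example 43.6 against 42.6 nucleotides in Rocket day -5.

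**Figure D2:**
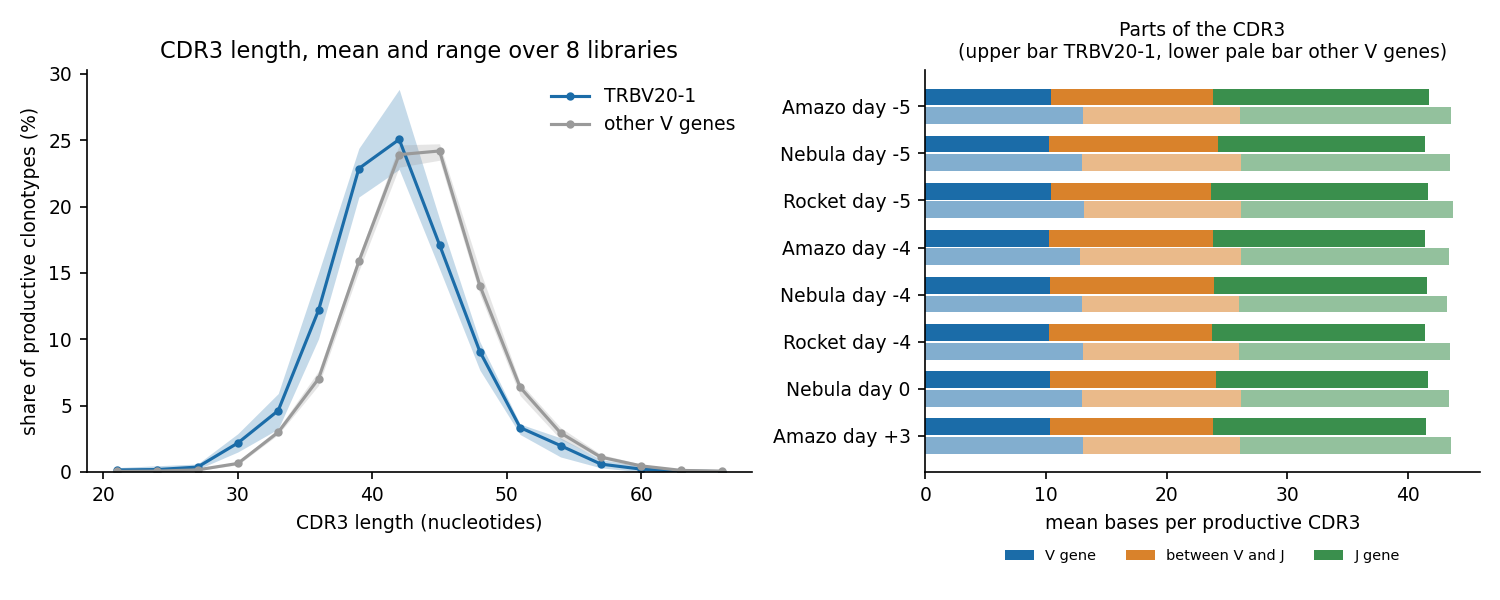
Left, the share of productive clonotypes (percent) at each in-frame CDR3 length (nucleotides) for TRBV20-1 and other V genes, as the mean (line) and range (band) over 8 post-infusion libraries. Right, mean bases from the V gene, between V and J, and from the J gene in each library. TRBV20-1 is shifted to shorter lengths, and its V part is the segment that is shorter in all 8 libraries.

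Trimming of the V end had its own profile. No V base was removed in 25.6% of productive TRBV20-1 clonotypes on average over the 8 libraries (23.4% to 27.6%), and 22.9% in other V genes (20.8% to 24.2%). The share was higher in TRBV20-1 in 8 of 8 libraries, by 1.17 to 4.17 percentage points. Removal of 5 bases, as in clone G, was the next most frequent in TRBV20-1 at 18.4% (16.1% to 21.7%), against 9.59% in other V genes (8.78% to 10.6%). Removal of 3 bases went the other way, with 8.78% (6.96% to 9.67%) against 20.1% (19.0% to 20.8%). For both 3 and 5 bases the ranges of TRBV20-1 and other V genes did not overlap. Removal of 4 bases took 15.8% and of 2 bases 15.3% of TRBV20-1 clonotypes. Palindromic bases, which arise when the hairpin at a segment end is opened off centre, were seen at the V end of 2.89% to 5.11%. These clonotypes are counted here among those with no V base removed. The mean number of V bases removed barely differed, with palindromic bases entered as negative values. It was 2.66 in TRBV20-1 (2.55 to 2.73 over the 8 libraries) and 2.72 in other V genes (2.60 to 2.90). Aligned bases can include added bases that match the gene by chance, and this was not corrected for.

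**Figure D3:**
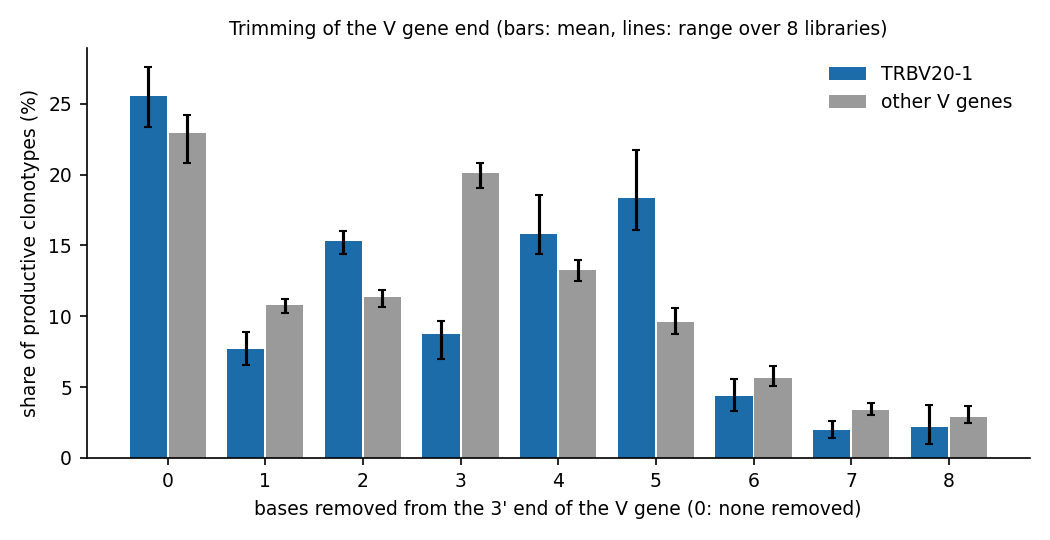
Share of productive clonotypes (percent) by the number of bases removed from the V gene end, for TRBV20-1 and other V genes. Bars are means and lines the range over 8 post-infusion libraries, and TRBV20-1 is lower at 3 removed bases (8.78% against 20.1%) and higher at 5 (18.4% against 9.59%).

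Pairing with J genes differed from that of other V genes at day -4. In the fit of clonotype numbers per J gene (edgeR quasi-likelihood test, library as block, total-count scaling), 38.5% of J genes were called (5 of 13). TRBJ2-4 was higher, at 14.2%, 15.1% and 11.04% of productive TRBV20-1 clonotypes in Amazo, Nebula and Rocket against 9.89%, 8.87% and 8.91% in other V genes. Its log2 fold change was 0.51 ± 0.11 (SE, edgeR adjusted p = 0.000804), and no TRBV20-1 value overlapped the others. TRBJ1-2 was higher by less, at 7.70%, 11.9% and 8.99% against 7.43%, 8.65% and 7.34% (log2 fold change 0.26 ± 0.086, edgeR adjusted p = 0.0166).

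The 3 J genes called lower lie next to each other at the start of the second J cluster. TRBJ2-2 took 6.33%, 5.97% and 5.33% of TRBV20-1 clonotypes and 8.88%, 7.79% and 8.13% of the others (log2 fold change -0.51 ± 0.096, edgeR adjusted p = 0.000197). TRBJ2-3 took 7.19%, 6.11% and 7.54% against 8.98%, 8.62% and 10.8% (log2 fold change -0.45 ± 0.12, edgeR adjusted p = 0.00308). TRBJ2-1 took 6.42%, 6.82% and 10.9% against 10.2%, 9.22% and 12.8% (log2 fold change -0.42 ± 0.14, edgeR adjusted p = 0.0192). Over all 8 libraries, TRBJ2-4 and TRBJ1-2 were higher in 8 and TRBJ2-2 and TRBJ2-3 lower in 8, while TRBJ2-1 was lower in 7. Without Rocket day -4, the library with the most TRBV20-1 clonotypes (1378), 0 of 13 were called, although all 5 genes kept their direction. The log2 fold changes were then 0.62 for TRBJ2-4, 0.24 for TRBJ1-2, -0.45 for TRBJ2-2, -0.39 for TRBJ2-3 and -0.58 for TRBJ2-1, with edgeR adjusted p-values from 0.0726 to 0.313. The calls also numbered 0 in the day -5 libraries and 0 when clonotypes were weighted by counts, with the same direction for all 5 genes.

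The most used J genes of TRBV20-1 were TRBJ2-4 (mean 12.5% over 8 libraries), TRBJ2-7 (12.3%) and TRBJ1-4 (9.69%). The first J cluster took 34.6% to 42.6% of TRBV20-1 clonotypes and 34.7% to 42.1% of the others. By counts, single clones moved these shares. TRBJ2-1, the J gene of clone A, ranged from 5.90% to 37.6% of productive TRBV20-1 counts.

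**Figure D4:**
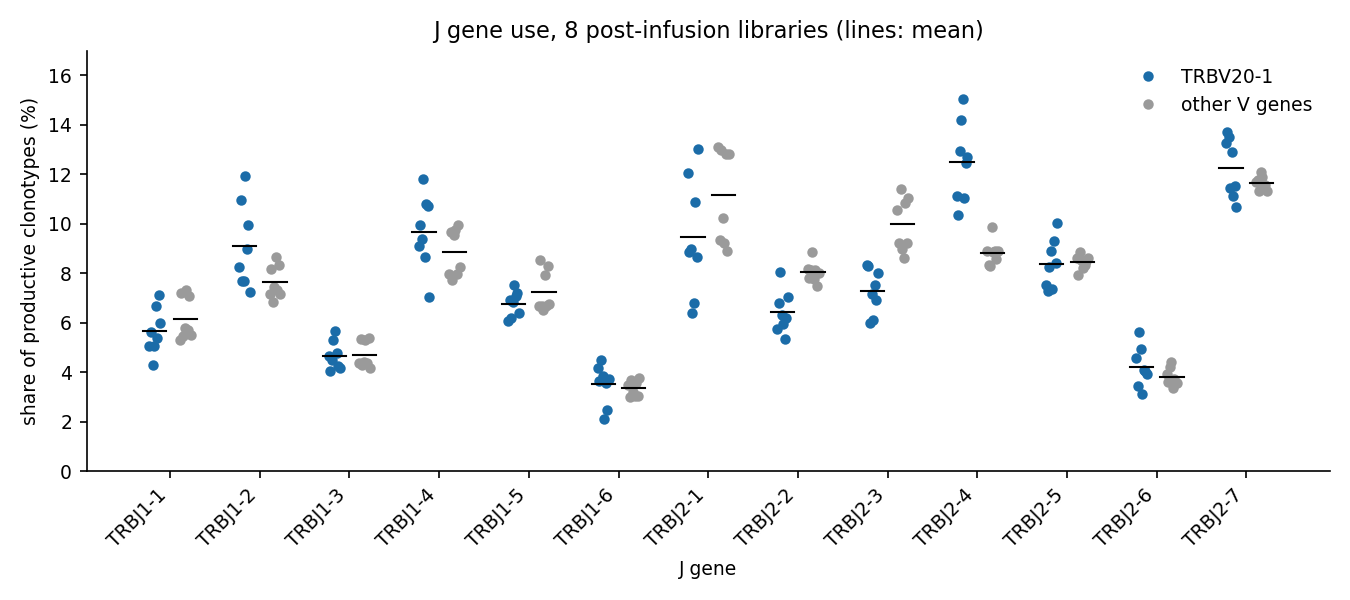
Share of productive clonotypes (percent) with each of the 13 J genes, for TRBV20-1 and for other V genes, 1 point for each of the 8 post-infusion libraries and a line at the mean. TRBJ2-4 is higher in TRBV20-1 (mean 12.5%) than in other V genes (mean 8.84%) in all 8 libraries, and TRBJ2-3 is lower (7.30% against 9.99%).

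D genes could be called for most TRBV20-1 clonotypes. A D hit was lacking in 21.2%, 23.9% and 20.6% of productive clonotypes at day -4 (Amazo, Nebula, Rocket) and in 26.3%, 26.8% and 24.1% of other V genes. The difference was -3.86 ± 1.06 percentage points (SD of the differences, n = 3, exact sign-flip permutation p = 0.25), and it was negative in 8 of 8 libraries. TRBD1 was hit in 49.4% to 58.3% and TRBD2 in 20.4% to 26.7% of TRBV20-1 clonotypes, against 49.7% to 51.6% and 22.0% to 25.9% in other V genes. TRBD2 lies downstream of the first J cluster, so deletional joining does not pair it with a TRBJ1 gene. TRBD2 was nevertheless the hit in 6.36% to 12.2% of TRBV20-1 clonotypes with a TRBJ1 gene and in 28.8% to 39.9% of those with a TRBJ2 gene. The values in other V genes were 8.91% to 9.84% and 30.6% to 35.4%, which the TRBV20-1 ranges enclosed.

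Rearrangements that cannot encode a chain were less frequent among TRBV20-1 clonotypes. Out-of-frame clonotypes made up 4.14%, 2.48% and 4.28% of TRBV20-1 and 7.12%, 4.72% and 6.49% of other V genes at day -4. The difference was -2.48 ± 0.436 percentage points (SD of the differences, n = 3, exact sign-flip permutation p = 0.25). It was negative in 8 of 8 libraries, from -3.12 to -1.84. In-frame clonotypes with a stop codon took 0.404% to 1.02% of TRBV20-1 and 0.758% to 2.04% of other V genes. The smallest out-of-frame share was in Nebula day -4, which was the shallowest of the 8 libraries.

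Clone sizes within TRBV20-1 differed between the repertoires, each led by a clone of its own. Clone A alone made up 22.6% of TRBV20-1 counts in Amazo day -5, 31.8% in Rocket day -5, 21.8% in Rocket day -4 and 22.6% in Amazo day +3. In Nebula the largest clone was clone D, with 4.47%, 4.50% and 3.26% at day -5, day -4 and day 0. Clone G was the largest in Amazo day -4, with 8.63%. Amazo day -5 and Rocket day -5 hold the same repertoire, led by clone A, so the 3 day -5 libraries are not 3 repertoires. From day -5 to day -4 the share of the largest clone went from a mean of 19.6% ± 13.9 to 11.7% ± 9.06 (SD, n = 3). It was lower in Amazo and Rocket and 0.0268 percentage points higher in Nebula (exact sign-flip permutation p = 0.5). The mean difference was -7.96 percentage points, -4.95 without the Amazo pair, whose libraries hold different repertoires, and -11.96 without the Nebula pair.

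The effective number of clonotypes is the number of equally large clonotypes that would give the same chance that 2 random counts are of 1 clonotype. For TRBV20-1 it was 19.0, 249 and 9.66 at day -5 and 101, 203 and 20.5 at day -4 (Amazo, Nebula, Rocket), 435 in Nebula day 0 and 19.0 in Amazo day +3. In other V genes it was 109, 1706 and 50.5 at day -5 and 148, 455 and 75.1 at day -4. Nebula day 0 had 945 there and Amazo day +3 79.3. The Nebula libraries were thus highest in both sets, and this is not particular to TRBV20-1. For TRBV20-1, the mean difference from day -5 to day -4 was 1.07 ± 1.35 on the log2 scale (SD of the differences, n = 3, higher in 2 of 3, exact sign-flip permutation p = 0.5). It was 0.39 without the Amazo pair and 1.75 without the Nebula pair. Amazo day -5 and Rocket day -5 hold the same repertoire, so the 3 pairs are not independent. Of the 2.26% of counts that TRBV20-1 held in Rocket day -5, clone A alone was 0.718 percentage points, and all other TRBV20-1 clonotypes together were 1.54%.

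Clone A held 0.685% of all counts in Amazo day -5, 0.718% in Rocket day -5, 0.615% in Rocket day -4 and 0.742% in Amazo day +3. It had 2 counts in Nebula day -5 and 0 in Nebula day -4, Nebula day 0 and Amazo day -4. Clone B kept to the same 4 libraries at 0.0647% to 0.0889%, and clone C at 0.0208% to 0.0396%. The 4 libraries thus shared the 3 largest TRBV20-1 clones in the same order, across both animal names.

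Clone D held 0.173%, 0.180% and 0.126% of counts in Nebula day -5, day -4 and day 0. Clone E held 0.0985%, 0.171% and 0.0546%. They were the 2 largest TRBV20-1 clones in each Nebula library and had 0 counts in every library with another name. Clones G and H reached 0.380% and 0.153% in Amazo day -4. They had 17 and 19 counts in Amazo day -5, which is 0.00488% and 0.00546%, and 0 counts in the other 6 post-infusion libraries, Amazo day +3 included. Clone I, also of Amazo day -4, had 0.0698% there and 5 counts in Amazo day -5. The source of these low counts was not tested.

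**Figure D5:**
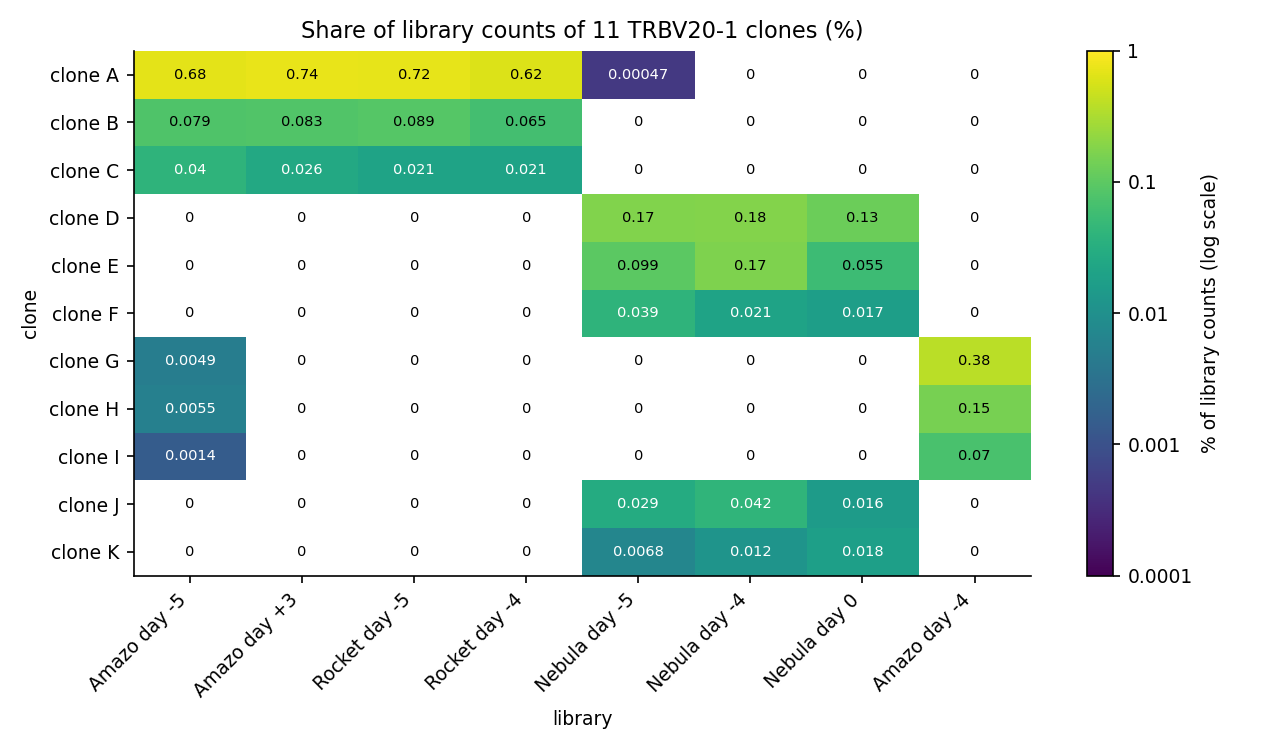
Share of all library counts (percent, colour on a log scale, 0 in white) of 11 TRBV20-1 clones in the 8 post-infusion libraries, ordered by repertoire. Clones A to C fill the 4 libraries of Rocket and Amazo day -5 and day +3, clones D to F, J and K the Nebula libraries, and clones G to I Amazo day -4, with 0.00144% to 0.00546% in Amazo day -5.

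Clones were then tested between day -5 and the later libraries of the same name. Fisher's exact test was run on all clonotypes of at least 0.1% in either library, with Benjamini-Hochberg adjustment within a pair. A call needed a change of 2-fold or more and an adjusted p under 0.05. Each time point is a single library here, so the test sets library against library. Few TRBV20-1 clonotypes reached 0.1%, between 1 and 3 in each pair. From Nebula day -5 to day -4, clone D went from 736 to 77 counts of very different totals (1.04-fold, adjusted p = 0.714 by Fisher's exact test). Clone E was 1.74-fold higher (adjusted p = 9.33e-05 by Fisher's exact test), under the 2-fold limit. Of all 25 tested clonotypes, 0% were called contracted and 8% expanded, and 0 of 2 TRBV20-1 clonotypes in each direction.

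From Nebula day -5 to day 0, clone D was 1.37-fold lower (adjusted p = 3.7e-06 by Fisher's exact test), and 0 of 1 was called where 8.7% of all 23 were called contracted and 0% expanded. In Rocket day -5 to day -4, clone A was 1.17-fold lower (adjusted p = 2.51e-07 by Fisher's exact test), and 0 of 1 was called where 1.92% of 52 were called contracted and 0% expanded. In Amazo day -5 to day +3, clone A was 1.08-fold higher (adjusted p = 0.00918 by Fisher's exact test), and 0 of 1 was called where 10.2% of 49 were called contracted and 0% expanded. In these 4 pairs, each within 1 repertoire, every TRBV20-1 clone of at least 0.1% thus moved by less than 2-fold from day -5. With the threshold at 0.05%, 2 TRBV20-1 clonotypes were tested in each of these pairs, and 0 were called. Clones below 0.05% were not tested, and clone F went from 0.0394% in Nebula day -5 to 0.0174% in Nebula day 0.

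The pair Amazo day -5 to day -4 joined different repertoires, and there 58% of 81 clonotypes were called contracted and 42% expanded. All 3 TRBV20-1 clonotypes tested were called. Clone A went from 2384 counts to 0, at least 896-fold lower against a floor of 3 counts in the later library. Clone G was 77.8-fold and clone H 28.0-fold higher. As all 81 clonotypes of the pair were called, nothing in it is particular to TRBV20-1.

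Overlap of whole TRBV20-1 repertoires gave the same 3 sets, which were drawn from clonotypes that include those of TRBV20-1. The Morisita-Horn index, which runs from 0 for no shared clonotype to 1 for the same clonotypes at the same shares, was 0.924 to 0.989 among the 4 libraries led by clone A. It was 0.583 to 0.720 among the Nebula libraries and at most 0.00677 in all other pairs. Over all V genes the index was 0.896 to 0.977, 0.765 to 0.903 and at most 0.0116, in the same order. Even within a set, few of the clonotypes were found again. Rocket day -5 and day -4 shared 51 TRBV20-1 clonotypes, 8.92% of the 572 at day -5 and 3.70% of the 1378 at day -4. Amazo day -5 shared 90 with Rocket day -4 and 7 with Amazo day -4.

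The V genes whose share of counts followed that of TRBV20-1 most closely over the 8 libraries were TRBV3-2 (Pearson r = 0.967 of log2 shares), TRBV11-3 (0.942) and TRBV6-1 (0.926), among 52 V genes. The share of TRBV3-2 ran from 0.651% to 1.90%, that of TRBV11-3 from 0.115% to 0.729% and that of TRBV6-1 from 0.751% to 5.84%. The 8 points stem from 3 repertoires, and shares in a library sum to a fixed total, so these values describe these libraries only.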

How the data were processed

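The study sequenced TRB transcripts from blood cells of rhesus macaques on a MiSeq, after template-switch cDNA synthesis and PCR of the VDJ region. The authors cleaned reads in Trimmomatic and then called clones by MiXCR, with rhesus TRB genes as the reference (versions not given in the sources used here). The deposited count per clone is a whole number that was not normalized. The deposited clone fraction is the count divided by the file's total, and shares were recomputed from counts. The study describes a barcode collapse and a filter at a clone fraction that the deposited tables do not show, and no table had a barcode column. PCR copies are not independent molecules, so intervals and Fisher's tests cover counting error only. Genome coordinates of TRBV20-1 were not used here.

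TRBV20-1 clonotypes were taken by the first V hit. V and J ends came from the alignment positions in the files. Total counts per library were 63 to 74 at baseline and 42695 to 556954 after infusion. Counts summed per V gene were tested in edgeR 4.0.16 in R 4.3.3 (TMM scaling, at least 10 counts in at least 3 libraries), and clonotype numbers per J gene with total-count scaling. The SE of a log2 fold change was taken as its absolute value divided by the square root of the F statistic. Single values had exact two-sided permutation tests. DESeq2 1.42.0 was an alternative, and so were other filters, weights, scalings and left-out libraries. All count tests were tested on simulated data. Other steps used Python 3.11.15, numpy 2.4.6, pandas 2.3.3, scipy 1.17.1 and matplotlib 3.10.9.

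Groups and animal names came from the labels. Animal names pair day -5 with day -4 as repeat samples of 1 animal, and V gene deviations of the paired libraries correlated for Nebula (0.855) and Rocket (0.925) but not for Amazo (-0.0444), whose libraries hold different repertoires. The gene, its clones and the lists were chosen with earlier results of these data known. Named were the 3 largest TRBV20-1 clonotypes of each post-infusion library (11 clones, A to K), clonotypes with the largest called changes, J genes called or most used, the 3 V genes of most similar share, and 4-residue starts of at least 2% in at least 3 libraries.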

Additional observations from a re-analysis of the deposited data

How the results depend on the processing

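Of 196 alternative values over 27 results, 157 were classed as the same as the reported value. For differences this meant the same sign, and for log2 fold changes the same sign and call. For counts of calls it meant a value within 1.5 times. Some of these could not have differed, as a mean difference is unchanged without the replicate block. Leaving out 1 of 3 differences of the same sign also cannot reverse their mean. The differences from baseline had no stable sign. For day -5 it was 0.424 percentage points with each clonotype counted once and -0.881 to 0.759 with 1 library left out, positive without baseline library 2 or Rocket day -5. For day -4 it was -0.811 with single V gene hits only and -0.188 to 1.45 with 1 library left out, negative without baseline library 4. J genes called numbered 0 weighted by counts, 2 with at least 2 counts per clonotype, 0 in the day -5 libraries and 0 to 5 with 1 library left out (0 without Rocket day -4). V genes called numbered 0 to 4 with 1 pair left out (4 without Amazo, 1 without Nebula), none of them TRBV20-1, whose log2 fold change stayed between 0.11 and 0.36 there. For tracked TRBV20-1 clonotypes, contractions from Amazo day -5 to day -4 numbered 2 at a threshold of 0.05% and expansions 0 at 0.5%. With any fold allowed, 1 was called in each other pair: expanded in Nebula day -4 and Amazo day +3, contracted in Rocket day -4 and Nebula day 0. Dropping the replicate block cannot change the mean difference in share of counts between day -5 and day -4, and only its p changes (exact permutation p = 0.4). In the fits without the block, 0 V genes and 4 of 13 J genes were called. TRBJ1-2 was no longer called (edgeR adjusted p = 0.251). Depth limits all baseline values, where 1 count is over 1.35% of a library.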

Other observations

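Identical TRBV20-1 CDR3 amino acid sequences were rarely met in different repertoires. In the 3 day -4 libraries, 1 of 3112 distinct productive TRBV20-1 CDR3 sequences (0.0321%) occurred in all 3. Of the other V genes pooled, a far larger set, 61 of 68313 did (0.0893%). The sets are thus unlike, and the difference was not tested. The shared TRBV20-1 sequence read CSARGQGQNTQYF, with TRBD1 and TRBJ2-4. It had 8 counts in Amazo, 5 in Nebula and 4 in Rocket, from 1, 2 and 1 nucleotide sequences. At 39 nucleotides it was shorter than the mean of the other TRBV20-1 clonotypes (41.4), with 8 against 13.5 bases between V and J.

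Within a library, 0.715% to 3.64% of TRBV20-1 CDR3 amino acid sequences were encoded by 2 or more nucleotide sequences, against 0.667% to 3.00% in other V genes. The lowest values of both were in Nebula day -4, the shallowest of the 8 libraries, and the TRBV20-1 share was higher in 4 of 8 libraries.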
